A study of Bos taurus with 14 samples.

Results

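The 8 transcripts described here, CD3G, TXK, UBASH3A, PTPRCAP, CD96, GZMB, GIMAP4 and CD69, are known as transcripts of T cells and of cytotoxic lymphocytes. They were followed in peripheral neutrophils of Holstein cattle (Bos taurus) on day 0 and day 7 of a β-CRX supplement, with liver for contrast. A probe was taken when a name field of the array files gave one of these symbols, which found 8 probe sequences on 9 spots among 15011 probes, or 8 of 6910 genes with exactly 1 symbol. The genes were chosen with their day 7 against day 0 values in these neutrophil samples already known, so those values are a description and carry no test.

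All animals were Holstein heifers or steers that were given β-CRX (β-cryptoxanthin, a carotenoid that animals can convert to vitamin A) by mouth at 0.2 mg per kg body weight on day 0. Animals 25, 26, 32 and 34 gave neutrophils and animals 58, 61 and 66 gave liver, once on day 0 and once on day 7, with 1 array per sample. No untreated cattle were analysed here. The sources used here give neither the sex and age of each animal nor the way neutrophils were isolated. The liver arrays shared 1 slide and the neutrophil arrays another, with the day 0 arrays in the upper row of each slide and the day 7 arrays in the lower, so tissue and slide, and day and array position, cannot be told apart.

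T cells recognise peptides through a T cell receptor that signals through the CD3 chains, which recruit kinases such as LCK, ZAP70 and members of the Tec family. Cytotoxic T cells and NK cells kill target cells with perforin and granzymes stored in granules. Neutrophils prepared from blood can hold small numbers of lymphocytes, and a bulk RNA sample does not separate the cells. In such samples, fewer cells of a type and less RNA per cell cannot be told apart, and whether these transcripts came from lymphocytes or from the neutrophils themselves was not tested.

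What each spot measured is set by its probe, and each gene had a single probe sequence, so the first 30 of the 60 bases of each are shown, 5′ to 3′, as the deposited array files give them.
CD3G: cttggaatcttggaagtagtaccaaagacc
TXK: aaatgcacctttacaagccacatgagtggg
UBASH3A: gagtgagcccatggtggtggttagagacac
PTPRCAP: tatccccagcccctccagcaaggccatcca
CD96: tccaccagtgcagtctacaaggattttctt
GZMB: atgttccctgggattggaagcattgatcaa
GIMAP4: ctgtaggaaatctttgaccaacaacatcca
CD69: tcctaagtgcaataaggtgtgtttatttgt
The probes held from 35% (CD69) to 60% (PTPRCAP) G and C bases. GZMB was spotted 2 times, and its second spot read 0.23 to 0.37 log2 units above the first on every neutrophil array. Levels of different genes are therefore not compared with each other below.

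Levels are log2 of the background-corrected spot signal minus the array's 75th percentile, so that 0 stands for the 75th percentile of the array and 1 unit is a 2-fold difference. Among the neutrophil arrays, the share of spots well above background was 63.5 to 71.6% for day 0 and 57.1 to 69.0% for day 7. In liver the ranges were 74.7 to 76.7% and 62.7 to 75.1%. The lowest liver share, 62.7%, was that of animal 58 on day 7. That array also had the weakest liver signal, a median of 128 where animals 61 and 66 had 174 and 152 on that day. Of the neutrophil arrays, that of animal 34 from day 7 had the weakest signal, a median of 48.2 where the other 3 of that day had 100.2 to 162.9. S100A8, a calcium-binding protein that is abundant in neutrophils, was at a mean log2 level of 7.54 on day 0 and 7.87 on day 7 in the neutrophil samples and at -2.68 and -3.10 in liver. ALB, the hepatocyte protein albumin, was not well above background on any neutrophil array. With 3 or 4 animals a group, the number of arrays limits the precision.

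In neutrophils, the mean day 7 level lay above the mean day 0 level for 8 of the 8 transcripts, against 44.4% of all 9450 probes tested. UBASH3A, at 0.03, was below 0 with quantile normalization, with the row trend removed and without animal 26 or 32, which leaves 7 of 8. The difference was at least 1 log2 unit for GZMB, GIMAP4, CD3G and TXK, which is 4 of 8 against 3.41% of all probes. With normexp and quantile normalization, or with the row trend removed, 2 of 8 reached 1. It was positive in every animal for 5 of 8 (these 4 and PTPRCAP) against 11.3% of all probes. The day 7 levels lay wholly above the day 0 levels for 3 of 8 (TXK, GIMAP4 and PTPRCAP) against 4.85%. The median difference of the 8 was 0.88, and that of all probes -0.07. Because the genes were picked on this very contrast, these shares are given without a test. Over all 9450 probes limma called 0 at an adjusted p under 0.05 (smallest adjusted p = 0.301), while 1267 probes, or 13.4%, had an unadjusted p under 0.05.

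**Figure D1:**
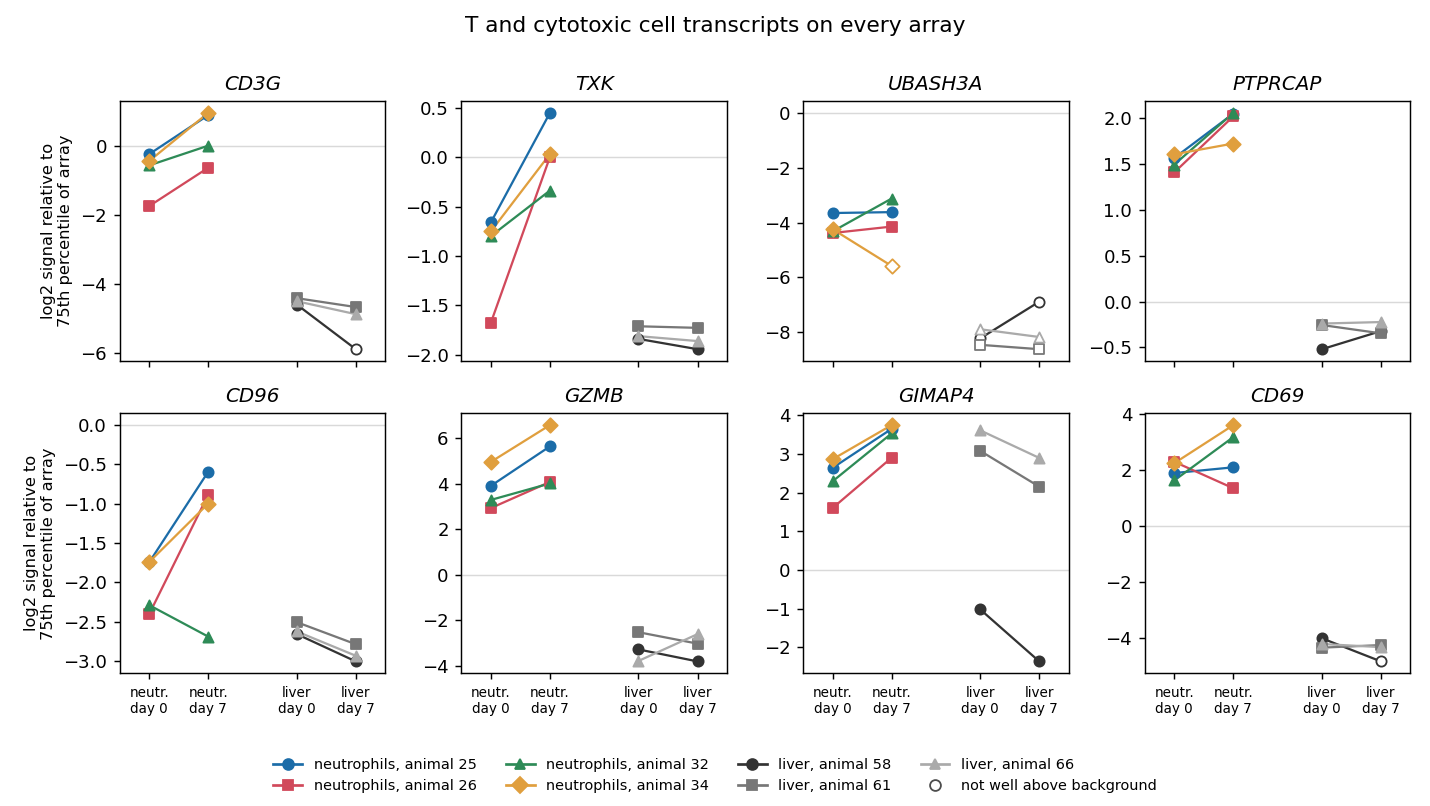
Log2 level of each transcript on each array (y axis, log2 signal relative to the array's 75th percentile), by tissue and day (x axis). Lines join the samples of 1 animal, open symbols are spots not well above background, and each panel has its own scale. In neutrophils the lines of CD3G, TXK, PTPRCAP, GZMB and GIMAP4 go up in 4 of 4 animals. In liver the lines of CD3G, TXK, CD96 and GIMAP4 go down in 3 of 3, that of CD3G in animal 58 to an open symbol.

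CD3G is the gamma chain of the CD3 complex that carries the signal of the T cell receptor. Its log2 level in animals 25, 26, 32 and 34 was -0.23, -1.74, -0.55 and -0.43 on day 0 and 0.90, -0.62, 0.02 and 0.97 on day 7. Animal 26 was the lowest on both days, and its day 7 level lay within the day 0 range, so that the days overlapped. Each animal was higher on day 7, by 1.13, 1.11, 0.57 and 1.40, a mean of 1.05 ± 0.35 (SD, n = 4) or 2.08-fold.

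TXK is a Tec family kinase of T cells. On day 0 the log2 level was -0.66, -1.68, -0.80 and -0.75 in animals 25, 26, 32 and 34. On day 7 it was 0.45, 0.00, -0.34 and 0.03. Animal 26 stood below the other 3 on day 0 and among them on day 7, and had the largest difference, 1.68. The days did not overlap, and the mean difference was 1.01 ± 0.52 (SD, n = 4), or 2.01-fold.

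PTPRCAP is a small membrane protein that associates with the phosphatase CD45 on lymphocytes. Its log2 levels were close together on day 0, at 1.57, 1.41, 1.49 and 1.61 in animals 25, 26, 32 and 34. On day 7 they were 2.05, 2.02 and 2.06 in animals 25, 26 and 32 and 1.72 in animal 34. The days did not overlap, and the mean difference was 0.44 ± 0.22 (SD, n = 4), or 1.36-fold. The smallest difference, 0.12, was that of animal 34, whose day 7 array was the weakest.

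UBASH3A, a phosphatase-like protein that dampens signalling from the T cell receptor, was dim in neutrophils. The log2 level was -3.65, -4.38, -4.32 and -4.24 on day 0 in animals 25, 26, 32 and 34. On day 7 it was -3.62, -4.14 and -3.12 in animals 25, 26 and 32, and -5.58 in animal 34, where the spot was not well above background. The mean difference of 0.03 ± 1.05 (SD, n = 4) therefore held 3 positive values, up to 1.198 in animal 32, and 1 negative value, -1.34, from the weakest array. The mean was 0.49 without animal 34 and -0.36 without animal 32.

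CD96 is a receptor of T cells and NK cells that binds the poliovirus receptor on other cells. Its log2 level was -1.74, -2.40, -2.29 and -1.74 in animals 25, 26, 32 and 34 on day 0 and -0.59, -0.88, -2.69 and -0.997 on day 7. On day 7, animals 25, 26 and 34 stood above every day 0 level, and animal 32 stood below all of them. The mean difference was 0.75 ± 0.83 (SD, n = 4), or 1.69-fold, with -0.40 in animal 32. It was 1.14 without animal 32 and 0.50 without animal 26.

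GZMB, the granule protease granzyme B that cytotoxic cells deliver into their targets, had the largest mean difference. Its log2 level was 3.91, 2.93, 3.29 and 4.97 in animals 25, 26, 32 and 34 on day 0 and 5.65, 4.09, 4.02 and 6.59 on day 7. The animals kept far apart on both days, with animal 34 the highest, and the day 7 levels of animals 26 and 32 lay within the day 0 range. The differences were 1.74, 1.15, 0.72 and 1.62, with a mean of 1.31 ± 0.46 (SD, n = 4), or 2.48-fold.

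GIMAP4 is a GTPase of the immunity-associated protein (IMAP) family, whose members act in the survival and development of lymphocytes. On day 0 its log2 level was 2.64, 1.60, 2.29 and 2.86 in animals 25, 26, 32 and 34. On day 7 it was 3.65, 2.90, 3.53 and 3.74. Every day 7 level lay above every day 0 level, by a narrow gap between animal 26 on day 7 and animal 34 on day 0. The differences were 1.01, 1.30, 1.24 and 0.88, the tightest spread among the 8 transcripts (1.11 ± 0.20, SD, n = 4, or 2.16-fold).

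CD69, a surface lectin that appears early on activated lymphocytes and is also made by other leukocytes, had the largest SD of the difference between days. Its log2 level was 1.90, 2.30, 1.64 and 2.25 in animals 25, 26, 32 and 34 on day 0 and 2.11, 1.36, 3.19 and 3.62 on day 7. Animals 32 and 34 were above the day 0 range on day 7, animal 25 within it and animal 26 below it. The mean difference was 0.54 ± 1.16 (SD, n = 4), with -0.95 in animal 26 and 1.55 in animal 32. It was 1.04 without animal 26, 0.21 without animal 32 and 0.27 without animal 34.

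**Figure D2:**
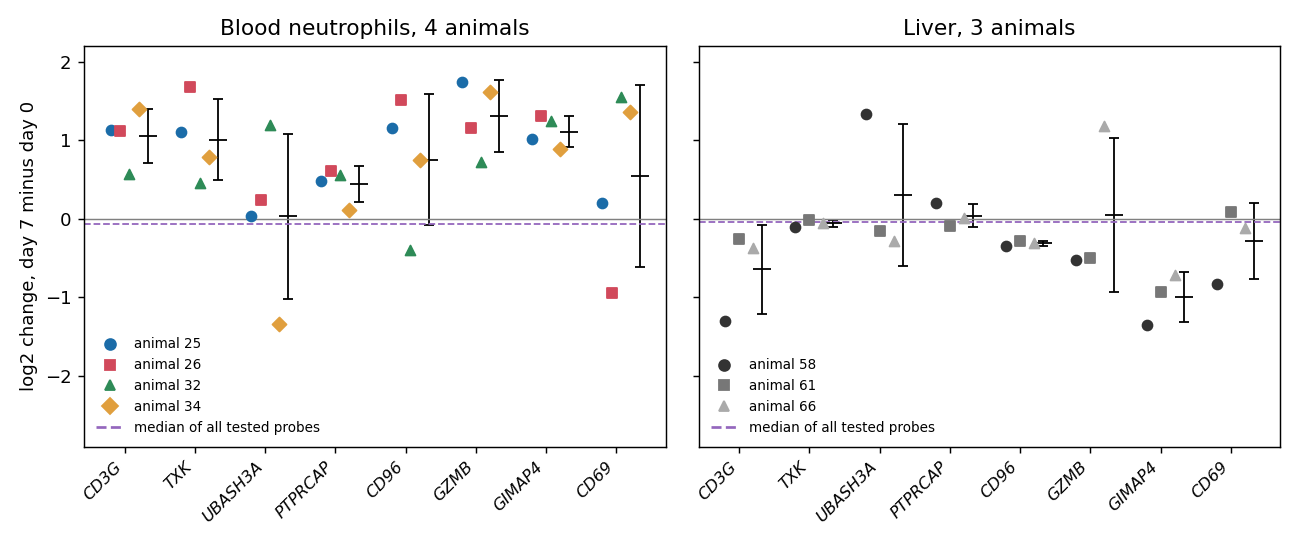
Day 7 minus day 0 difference of each transcript (y axis, log2) in each animal (points), with the mean ± SD beside them, in neutrophils (left) and liver (right); the dashed line is the median over all tested probes. In neutrophils the means run from 0.03 (UBASH3A) to 1.31 (GZMB), and in liver from -0.995 (GIMAP4) to 0.30 (UBASH3A, not well above background on any liver array).

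The animals differed from each other in ways that many of the transcripts shared. On day 0, animal 26 had the lowest level of 7 of the 8 transcripts and the highest level of the remaining one, CD69. Animal 34 was the highest for GZMB, CD96, GIMAP4 and PTPRCAP on day 0. On day 7 it was the highest for CD3G, GZMB, GIMAP4 and CD69 and the lowest for PTPRCAP and UBASH3A. Within an animal, the median difference over the 8 transcripts was 1.06, 1.13, 0.65 and 0.83 in animals 25, 26, 32 and 34, where all probes had medians between -0.14 and 0.08. The number of the 8 that were higher on day 7 was 8, 7, 7 and 7. Animal 32 had the smallest difference for CD3G, TXK, CD96 and GZMB and the largest for UBASH3A and CD69. Without animal 34, the mean difference was positive for 8 of 8 and at least 1 for 3 of 8, with a median of 0.85.

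Further genes of the T cell receptor complex and its signalling, from a marker list written with earlier results of these data known, were measured on the same arrays. Without the 5 members on it, 11 of its genes could be tested in neutrophils, 9 had a mean difference above 0 and none passed at an adjusted p under 0.05 (limma; 3 had an unadjusted p under 0.05, each with a difference above 0). The median difference was 0.39, and by animal it was 0.47, 1.16, 0.60 and -0.07 in animals 25, 26, 32 and 34. Among the chains that sit beside CD3G, CD3E differed by 0.77 ± 0.41 (SD, n = 4; higher in 4 of 4 animals), CD3D by 0.49 ± 0.76 (3 of 4) and CD247 by 0.39 ± 0.19 (4 of 4). CD3E was at 1.33, 0.57, 1.36 and 1.19 on day 0 and at 2.02, 1.94, 1.84 and 1.71 on day 7 in animals 25, 26, 32 and 34. Its days did not overlap.

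CD2, an adhesion receptor of T cells, differed by 0.06 ± 0.75, CD5, a negative regulator of receptor signals, by 0.13 ± 1.48, and LCK, the kinase that starts the signal, by -0.45 ± 2.46 (SD, n = 4). Each was higher on day 7 in 3 of 4 animals, and the spread between animals was larger than the mean. LCK was not well above background on 1 day 7 array, that of animal 34, which was the weakest. CD8A, the co-receptor of cytotoxic T cells, was at 0.20, -0.60, -0.20 and 0.37 on day 0 and at 1.09, 1.08, -0.32 and 1.20 on day 7 in animals 25, 26, 32 and 34. As with CD96, animal 32 alone was lower on day 7.

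The array also held 20 probes whose name or description gives a T cell receptor chain, found after the files were read. Of the 7 that could be tested in neutrophils, 5 had a mean difference above 0 and none passed the adjusted threshold. The probe of the alpha chain constant region was at 2.95, 2.42, 2.90 and 3.12 on day 0 and at 4.02, 3.72, 2.97 and 4.04 on day 7 in animals 25, 26, 32 and 34, a mean difference of 0.84 ± 0.54 (SD, n = 4). Animals 25, 26 and 34 were high on day 7, and animal 32 stayed within the day 0 range. A second alpha chain probe differed by 0.84 ± 0.35, higher in 4 of 4 animals. A delta chain probe, from the receptor of gamma delta T cells, which are abundant in cattle, differed by 0.40 ± 0.79 and was higher in 3 of 4, and another delta chain probe differed by 0.22 ± 1.06 (3 of 4). The probe of a gamma chain variable region, TRGV7-1, differed by -0.02 ± 0.98 (higher in 2 of 4 animals). A probe named for the beta chain locus, but described as cationic trypsin, differed by -0.35 ± 0.73 (1 of 4). It is counted among the 20 and the 7 by its name, and whether it measured a receptor chain was not tested.

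No other listed GIMAP gene was named on the array, but 1 probe was described as similar to GTPase IMAP family member 7. Its log2 level was 3.65, 2.75, 3.39 and 3.72 on day 0 and 4.75, 4.002, 4.29 and 5.25 on day 7 in animals 25, 26, 32 and 34. As for GIMAP4, every day 7 level lay above every day 0 level, and animal 26 was the lowest on both days. The mean difference was 1.20 ± 0.27 (SD, n = 4) in neutrophils and -0.15 ± 0.09 (SD, n = 3) in liver.

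On the list of cytotoxic effectors and NK receptors, 10 genes beside GZMB could be tested in neutrophils, 7 had a difference above 0 and none passed at an adjusted p under 0.05 (limma; 1 had an unadjusted p under 0.05, with a difference above 0). Their median difference was 0.32. PRF1, the pore-forming protein that lets granzymes into a target cell, differed by 0.32 ± 0.21 and CCL5, a chemokine of effector T cells, by 0.58 ± 0.48, both higher in 4 of 4 animals. NKG7, a granule membrane protein, differed by -0.04 ± 1.41 (SD, n = 4). KLRD1, an NK receptor chain, was not well above background on every array of either day and was not tested. Of the genes of lymphocyte activation beside CD69, 5 of 9 tested had a difference above 0, with a median of 0.06 and none past the threshold (0 with an unadjusted p under 0.05).

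Markers of other blood cells were measured on the same arrays, and their part in the results above was not tested. Of 8 tested genes of B and plasma cells, 7 had a difference above 0, with a median of 0.87, and 0 passed (3 had an unadjusted p under 0.05). The mean log2 level of that list ran from -2.59 to -1.66 over the day 0 arrays and from -1.63 to -1.22 over the day 7 arrays, without overlap. CD79A, the signalling chain of the B cell receptor, differed by 0.38 ± 0.37 (3 of 4 animals) and MS4A1, which codes for CD20, by 0.74 ± 1.37 (3 of 4). For the T cell list without the members, the mean level ran from -0.04 to 0.52 on day 0 and from -0.11 to 0.92 on day 7. The value of -0.11 was that of animal 34, whose day 7 array was the weakest. Animals 25, 26 and 32 were at 0.91, 0.91 and 0.92 on day 7. For the cytotoxic list without GZMB the mean level ran from -0.86 to -0.17 on day 0 and from -0.38 to 0.17 on day 7.

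Monocyte markers had a median difference of 0.24 (4 of 6 above 0; mean level 1.51 to 1.76 on day 0 and 1.64 to 2.42 on day 7), and CD14, the monocyte receptor for bacterial lipopolysaccharide, differed by 0.38 ± 0.91 (SD, n = 4). Neutrophil markers had a median of -0.09 (5 of 16 above 0; mean level 1.998 to 2.25 and 1.59 to 2.63). Of the 16, ITGAM, an integrin chain of myeloid cells, was the only one with an unadjusted p under 0.05, at -1.24 ± 0.70 (SD, n = 4; lower in 4 of 4 animals; limma adjusted p = 0.306). The single tested marker of eosinophils and basophils, CCR3, the eotaxin receptor, was lower on day 7 in 4 of 4 animals. Its log2 level was 0.63, 0.75, 1.89 and 0.19 on day 0 and -0.42, -0.97, -0.63 and -0.75 on day 7 in animals 25, 26, 32 and 34. Platelet and erythroid markers had a median of -0.28 (0 of 3 above 0), and HBB, a chain of haemoglobin, was not well above background on any neutrophil array. Hepatocyte markers had a median of -0.36 (2 of 5 above 0). In animal 32 alone these medians were positive, at 0.82 for platelet and erythroid and 0.26 for hepatocyte markers.

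**Figure D3:**
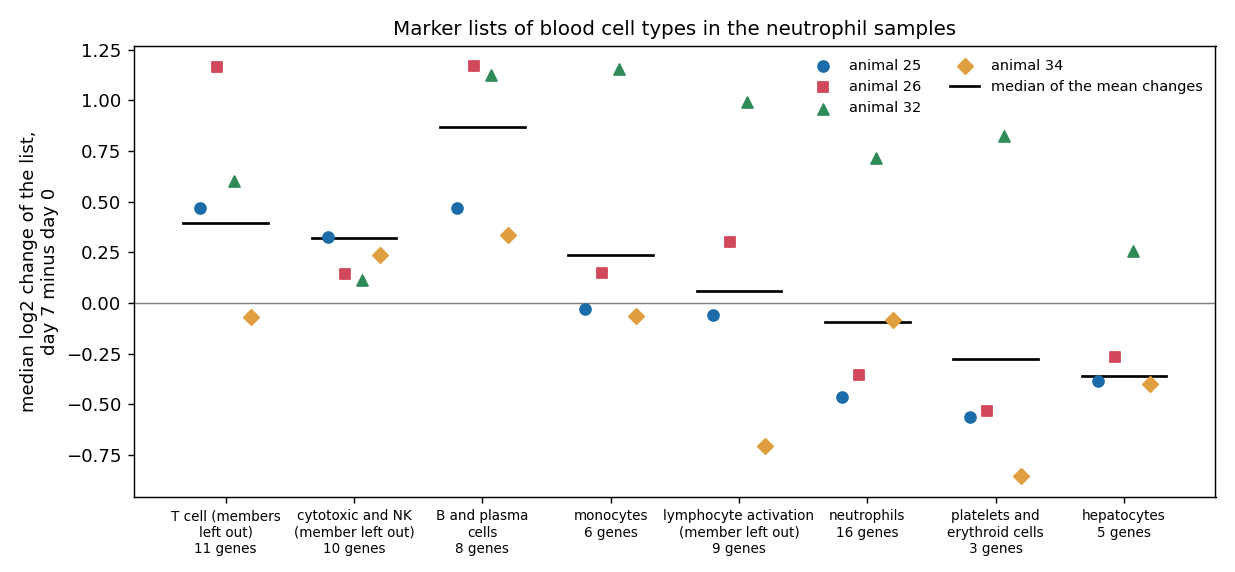
Median day 7 minus day 0 difference (y axis, log2) of each marker list in neutrophils (x axis, with the number of genes tested), per animal (points) and as the median of the genes' mean differences (bar). The bars are highest for B and plasma cells (0.87) and the T cell list without members (0.39), and animal 32 is the highest point for monocyte, activation, neutrophil, platelet and erythroid, and hepatocyte markers.

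The transcripts whose profiles over the 8 neutrophil arrays were most like the mean profile of the members were found among 4242 probes with 1 symbol that were well above background on every neutrophil array. They were RNF144, RPAP1, C1QBP, TSPAN13, XPNPEP1, ZBTB9, DAPL1, NHP2, RMDN3 and GADD45GIP1, with Pearson's r from 0.956 to 0.978 across arrays. Each was higher on day 7 in 4 of 4 animals, by 0.56 (RPAP1) to 1.12 (TSPAN13), against 11.3% of all tested probes. The mean member profile was itself lower on every day 0 array (-1.14 to -0.14) than on every day 7 array (0.10 to 0.96). A rise in these 10 was therefore largely set by how they were picked. None of the 10 is on a marker list used here. The median r was 0.57 for 9 genes of the T cell list, 0.51 for 9 cytotoxic genes, 0.72 for 6 B and plasma cell genes, 0.38 for 7 monocyte probes and -0.26 for 16 neutrophil genes, with members left out, and -0.03 over all 4242 probes. The arrays share animals, 1 slide and the split by day, so these r are a description.

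In liver, which came from other animals and arrays than the neutrophil values used to choose the genes, the difference between days was tested. The genes were chosen with earlier results of these data known, so this test may not be free of that choice. Of the 10935 probes tested, limma with the animal as a block called 435, or 3.98%, at an adjusted p under 0.05, and 1.31% as lower on day 7. Of the 7 transcripts that could be tested, 1 passed, GIMAP4, and it was lower on day 7. Its log2 level in animals 58, 61 and 66 was -1.02, 3.08 and 3.61 on day 0 and -2.37, 2.15 and 2.89 on day 7. Animal 58 stood more than 4 log2 units below the other animals on both days, and its day 7 array was the weakest in liver. Each animal fell, by 1.35, 0.93 and 0.71, and the mean change was -0.995 ± 0.15 (SE, n = 3; adjusted p = 0.0459).

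The GIMAP4 call in liver was near the threshold. It was lost without animal 58, 61 or 66 (adjusted p = 0.194, 0.148 and 0.092), without the filter on dim probes (0.203) and without the animal block (0.958). Its spot lies in row 191 of 192 of the array, where liver probes were lower on day 7 in general, with a median of -0.38 over the last 16 rows against -0.04 in rows 41 to 152. With a smooth trend along the rows removed, the GIMAP4 change was -0.63 (adjusted p = 0.264, limma). In neutrophils the last 16 rows had a median of -0.09, and the difference of GIMAP4 was 1.12 with the trend removed.

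The other transcripts did not pass in liver. CD3G was at -4.60, -4.41 and -4.50 on day 0 in animals 58, 61 and 66, and on day 7 at -4.67 and -4.88 in animals 61 and 66 and at -5.89 in animal 58, where it was not well above background. Its difference was -0.64 ± 0.24 (SE, n = 3; limma adjusted p = 0.265). CD96 was at -2.66, -2.50 and -2.62 on day 0 and at -3.003, -2.78 and -2.93 on day 7, lower in each animal by nearly the same amount (-0.31 ± 0.10, SE, n = 3; limma adjusted p = 0.198). The CD96 spot lies in row 177, within the last 16 rows, where liver probes had a median of -0.38. With the row trend removed, the CD96 change was -0.13 (limma adjusted p = 0.683). For CD3G and CD96 every day 7 level lay below every day 0 level, which is 2 of the 7 tested, against 7.95% of all tested liver probes. That share covers all rows of the array. For CD3G the day 7 level of animal 58 counts here although it was not well above background.

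TXK was between -1.95 and -1.71 on all 6 liver arrays and differed by -0.06 ± 0.10 (SE; limma adjusted p = 0.815). PTPRCAP was between -0.52 and -0.22 and differed by 0.04 ± 0.11 (SE; limma adjusted p = 0.885). GZMB was between -3.81 and -2.53, with differences of -0.53, -0.50 and 1.18 in animals 58, 61 and 66 (limma adjusted p = 0.964). CD69 was between -4.85 and -4.02 (limma adjusted p = 0.563; not well above background in animal 58 on day 7), and UBASH3A was not well above background on any liver array. Over the 7 tested transcripts the median difference was -0.28. CD3G, CD96, TXK and GIMAP4 were lower in every animal, which is 4 of the 7 tested, against 22.7% of all tested liver probes. That share covers all rows, while the spots of CD96 and GIMAP4 lie in the last 16 rows, where the liver median was -0.38. The change of TXK was within its error. For CD3G this includes animal 58, which was not well above background on day 7. On the T cell list without members 6 of 9 tested genes were above 0 in liver (median 0.14), and on the cytotoxic list without GZMB 2 of 12 (median -0.11). All tested liver probes had a median of -0.04. None of these list genes passed at an adjusted p under 0.05 (limma). An unadjusted p under 0.05 was reached by 3 T cell genes (2 higher, 1 lower) and 2 cytotoxic genes (both lower). Of all 10935 liver probes, 1953 reached it. The listed genes that passed in liver beside GIMAP4 were CISH, a feedback inhibitor of cytokine signals (1.54, adjusted p = 0.0352, limma), and the hepatocyte products RBP4, FGB and AMBP (0.86, 1.05 and 1.47; adjusted p = 0.0271, 0.0325 and 0.0331; AMBP without 1 spot with an outlier mark). The spots of CISH and AMBP lie in rows 4 and 7, and the first 16 rows had a median of 0.54 in liver.

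On day 0, before the supplement, no level in neutrophils overlapped one in liver for 7 of the 8 transcripts, each higher in neutrophils, as for 43.3% of 11498 probes in that direction. Over all those probes, limma called 83.1% in either direction at an adjusted p under 0.05. The genes were chosen on these neutrophil arrays with liver levels for contrast, so their values here are a description with no test. GZMB was at a mean log2 level of 3.78 ± 0.89 (SD, n = 4) in neutrophils and -3.20 ± 0.64 (SD, n = 3) in liver, a 126-fold difference. CD69 was at 2.02 ± 0.31 and -4.20 ± 0.17, a 74.5-fold difference. For CD3G the means were -0.74 ± 0.68 and -4.50 ± 0.09, which is 13.6-fold.

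PTPRCAP was at 1.52 ± 0.09 in neutrophils (SD, n = 4) and -0.34 ± 0.16 in liver (SD, n = 3), TXK at -0.97 ± 0.47 and -1.79 ± 0.07, and CD96 at -2.04 ± 0.35 and -2.59 ± 0.08. UBASH3A was not well above background in liver. It was at least 5.70-fold higher in neutrophils, where the bound sets the neutrophil mean against the lowest signal well above background on each liver array. With normexp and quantile normalization its fitted difference was 0.80 log2 units, below that bound.

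GIMAP4 overlapped between the tissues, at 2.35 ± 0.55 in neutrophils (SD, n = 4) and 1.89 ± 2.53 in liver (SD, n = 3). Its liver level ranged from -1.02 in animal 58 to 3.61 in animal 66. The neutrophil minus liver difference was 0.46 with animal 58 and -0.996 without it.

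**Figure D4:**
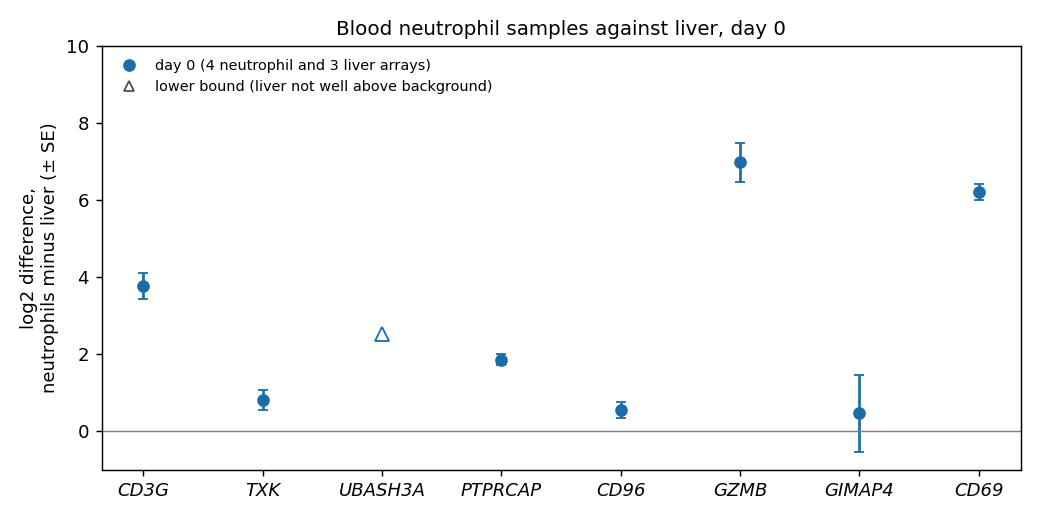
Neutrophil minus liver difference of each transcript on day 0 (y axis, log2, ± SE of the limma fit; 4 and 3 arrays). The triangle is the lower bound for UBASH3A, GZMB and CD69 lie above 6, and GIMAP4 has the widest error, 1.01.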

How the data were processed

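Total RNA of 14 samples was hybridised to 1-colour (Cy3) Agilent arrays. The authors' spot intensities are processed signals of Agilent Feature Extraction 9.5, per the submitters' processing notes, already background-subtracted per the file headers. In the authors' deposited table, the log2 values equalled log2 of the same signals minus a constant per array (r = 1, constant within 0.0069 to 0.013 of the 75th percentile, column medians -3.55 to -2.69), which settled their scale, centring and direction. No genome build is stated in the sources used here, so positions are left out.

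Control and outlier-marked spots were left out, and spots of 1 sequence averaged. Levels are log2 values of these signals after dividing by the 75th percentile of the array, with no pseudocount. Of 15011 probes, 7120 had 1 symbol, 3 several and 7888 none, by accession (2505), gene number (2009), stated similarity to a human gene (1165), symbol (1159) or synonym (282), through a RefSeq gene table used for names. Of several probes of a gene, the brightest in the tissue was used. GIMAP4 was found through the symbol in brackets of the accession field.

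Tests covered probes that in at least 1 of the groups compared were well above background on all arrays, and used limma 3.58.1 (R 4.3.3; lmFit, eBayes), with the animal as a block between days, two-sided, and Benjamini-Hochberg adjustment over all probes (threshold 0.05). The members have no test in neutrophils or between tissues, whose values their choice rests on. The code was tested on simulated data. The labels name the same animal on both days. Deviations from the group means correlated within animals at 0.61, 0.36, 0.03 and 0.24 (25, 26, 32 and 34) and 0.65, 0.31 and 0.61 (58, 61 and 66). SD is between animals, SE that of the moderated fit.

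The members and lists were chosen with earlier results of these data known. By rule, the text names all 8 members, list genes past the threshold, preset defining genes (17 of 28 on the array) and the 10 transcripts most like the members. Other genes were singled out after their values were seen (CCR3, ITGAM, receptor and IMAP probes). Alternatives were no block, 2 other normalizations (quantile with or without normexp, offset 50), the authors' values, 2 other filters, each animal left out, a row trend removed (loess, span 0.3), an adjusted p of 0.1 and day 7 for the tissues. No member had a second probe sequence to try.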

Additional observations from a re-analysis of the deposited data

Results flagged for a closer look

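For 3 transcripts, each of the 4 neutrophil animals was higher on day 7 and each of the 3 liver animals lower. Of all tested probes, 11.3% were higher in every neutrophil animal and 22.7% lower in every liver animal. The share of probes that met both conditions was not counted. The mean change in neutrophils minus that in liver was 1.70 log2 units for CD3G, 1.06 for TXK and 2.10 for GIMAP4. The difference between the tissues was not tested, and the neutrophil values were known when these genes were chosen. In the liver, CD3G was not well above background in animal 58 on day 7, and the change of TXK, -0.06, was within its error. The GIMAP4 spot lies in row 191 of the array, and its liver change was -0.63 with the row trend removed.

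Single arrays stood apart in 2 of 24 sets of 4 values examined, where chance gives about 1 in 20 for independent sets. These sets are not independent, since they share the same 4 animals. For TXK in neutrophils on day 0, animal 26 lay below the others, with a gap of 0.864 of the range. For PTPRCAP in neutrophils on day 7, animal 34 lay below the others, with a gap of 0.888 of the range. The latter is the weakest array of the series.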

How the results depend on the processing

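In neutrophils, no probe passed the adjusted threshold of limma under any alternative (557 to 1952 at an unadjusted p under 0.05). All mean differences tested stayed above 0 under each alternative but 4 (quantile normalization, row trend removed, without animal 26 or 32), where 7 of 8 did. Those of at least 1 numbered 2 with normexp and quantile normalization or the row trend removed, and 3 to 5 otherwise. The authors' values, the filters and the block left these means almost or wholly as they were. The count of probes called in liver, 435, was 210 without the replicate block (0 in neutrophils, with 1031 at an unadjusted p under 0.05), 0 without a filter on dim probes, 73 with the row trend removed, 790 at an adjusted p under 0.1 and 0 to 159 without 1 animal. With other normalizations, the authors' values or the stricter filter it was 327 to 583. Between the tissues, 7049 to 12054 probes were called. There, GIMAP4 turned from 0.46 to -0.996 without animal 58, and was 1.32 without animal 66 and 2.56 on the day 7 arrays. Of the members' liver values, 62 stayed on their side of the threshold and 6, all of GIMAP4, did not. Dim signal limits UBASH3A most, and CD3G and CD69 in liver. The cause of these differences was not tested.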

Other observations

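Among the T cell genes, CD3E in liver split by animal and not by day. Its log2 level was -2.77 on day 0 and -2.56 on day 7 in animal 58, -2.76 and -2.08 in animal 61, and -6.26 and -6.07 in animal 66. The GIMAP4 probe in liver also set 1 animal apart, but another one: animal 58 was at -1.02 and -2.37, against 2.15 to 3.61 in animals 61 and 66. The probe similar to IMAP family member 7 showed no such gap, with levels from 0.14 to 0.52 over the 6 liver arrays. CD8A in liver was at -1.90 and -1.91 in animal 58 and between -1.35 and -1.02 in animals 61 and 66.

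JCHAIN, the joining chain of secreted immunoglobulins, and BLNK, an adaptor of the B cell receptor, differed by 1.56 ± 0.50 and 1.29 ± 0.69 (SD, n = 4) between days in neutrophils, higher on day 7 in 4 of 4 animals. On the same list, CR2, a complement receptor of B cells, differed by -0.68 ± 0.69 (lower in 4 of 4 animals), and SPIB, a transcription factor, by 0.06 ± 1.83 (higher in 3 of 4). These 4 genes were singled out after their values were seen, and none passed at an adjusted p under 0.05 (limma).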
